A study of Glycine max with 9 samples.

Results

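The genes described here are 150 soybean genes whose transcripts were lowest at 24h in a 3-age series of root hair cells, out of 56044 gene IDs in all. They were chosen by their measured values. A gene had to average 5 to 1000 FPKM (fragment counts divided by transcript length and by the library's mapped total) over the 9 libraries, which left 17155 genes. After each library was scaled to a common level by the median of its ratios, all 3 of the 24h libraries had to lie below all 6 of the other libraries, which left 954 genes. These were ranked by the rule value, which is the lower of the mean log2 levels at 12h and at 48h, minus the mean log2 level at 24h, and the first 150 were taken. The log2 level is log2(scaled FPKM + 1). That these genes were lower at 24h is therefore the way they were found and not a finding. The values at 24h against the other ages are given below as a description. Where a fit over all genes called members in those contrasts, the count is printed and nothing is read from it.

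Root hairs are single-cell outgrowths of the root epidermis that lengthen at their tip. They enlarge the surface through which a plant takes up water and mineral nutrients, and in legumes such as soybean they are also where rhizobia, the bacteria of root nodules, usually enter the root. A hair starts as a bulge on an epidermal cell, grows by secretion at its tip and then stops, so hairs of several stages are found along a root at any moment.

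All libraries were made from root hair cells of the Williams 82 genotype, spelled "willam 82" in the labels, grown in an ultrasound aeroponic system. No treatment is named. The groups are 12h, 24h and 48h by title and 276, 288 and 312 hours after sowing by age, with 3 libraries each. The step in age was thus 12 hours between the 12h and 24h libraries and 24 hours between the 24h and 48h libraries. If all plants were sown at the same hour, which the labels do not state, the 24h and 48h libraries share an hour of the day and the 12h libraries do not. The labels do not say whether replicates are separate plants or cultures, so p-values reflect only how far these libraries differ, which may be technical. In bulk samples, fewer cells of a type and less RNA per cell cannot be told apart.

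No gene name can be given to the members. The file lists soybean locus IDs without names, and 0 of the 56044 IDs, and so 0 of the 150, matched the RefSeq gene table of the Glycine_max_v4.0 assembly. The root hair label was not checked here, since no list of root hair markers by locus ID had been set up. Depth per library is unknown, because FPKM do not hold the read totals. Soybean has many near-identical gene copies that share reads, so the separate values of such copies are uncertain.

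The libraries differed in make-up before any gene was chosen. The 100 most abundant genes took 53.6% of all FPKM in 12h replicate 2. They took 38.5% in 24h replicate 2, 37.997% in 24h replicate 3 and 33.1% in 24h replicate 1, and 22.5% to 28.1% in the other 5 libraries. The number of genes above 0 was 37881 in 12h replicate 2 and 37256 in 24h replicate 3, and 40885 to 42430 elsewhere. The scaling factors, by which the deposited values were divided, were 0.599 for 12h replicate 2, 0.798 for 24h replicate 3 and 0.967 to 1.242 for the other 7.

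As a set the 150 genes were of moderate abundance at 12h and 48h and low at 24h. Their group means had a median of 14.3 scaled FPKM at 12h, 4.61 at 24h and 12.3 at 48h. For the 146 members listed above exactly 0 in all 24h libraries (1 of them, Glyma.07G078400, at 2.61e-08 scaled FPKM in 24h replicate 3), the 24h mean was a median of 0.340 times the 12h mean, with a range of 0.0410 to 0.475. The 48h mean was a median of 2.73 times the 24h mean, with a range of 2.11 to 6.404. In 27 of the 146 the 24h mean was under 0.25 times the 12h mean, and in 6 the 48h mean was over 4 times the 24h mean. The upper end of the first range and the lower end of the second are set by the limit of the choice. The lower end of the first range, Glyma.02G156100, named after its values were seen, rested on 12h replicate 3. That library had 141 scaled FPKM of it, against 5.88 and 3.33 scaled FPKM in 12h replicates 1 and 2.

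**Figure D1:**
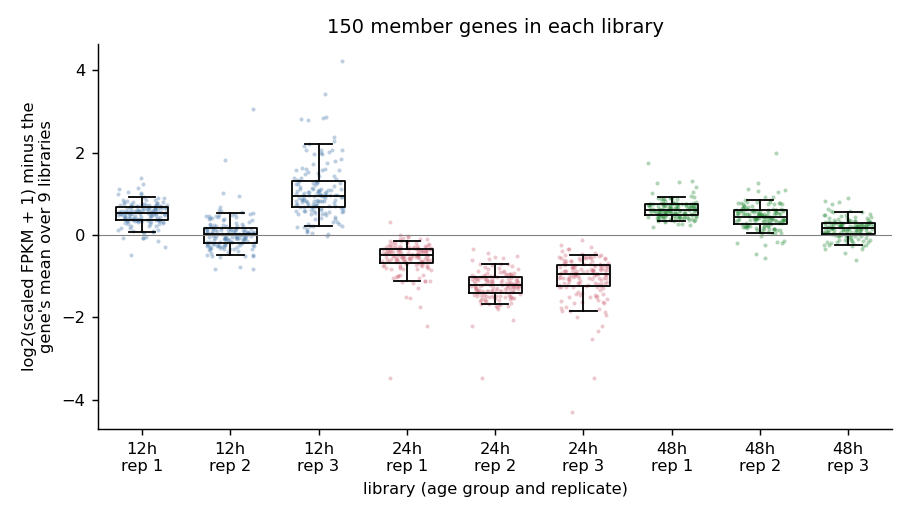
Level of each of the 150 members in each library, as log2(scaled FPKM + 1) minus the gene's own mean over the 9 libraries (y axis). Boxes show quartiles with the median, whiskers the 5th to 95th percentile, and points single genes. The 24h libraries lie lowest, as the choice required, and 12h replicate 2 lies below the other 12h libraries.

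The rule value ran from 1.08 to 4.56 with a median of 1.22, and 16 members were above 1.5. The genes on either side of the limit did not stand apart. The last member, Glyma.16G127900, had a rule value of 1.0788, and the first gene left out, Glyma.02G122200, had 1.0774. Members differed little from the other genes that met the condition in how abundant they were. Their mean over the 9 libraries had a median of 10.99 FPKM as deposited, against 10.7 FPKM for all 954 genes and 13.9 FPKM for the 17155 genes in the window. Only 2 members averaged 100 FPKM or more, of 1255 such genes in the window.

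**Figure D2:**
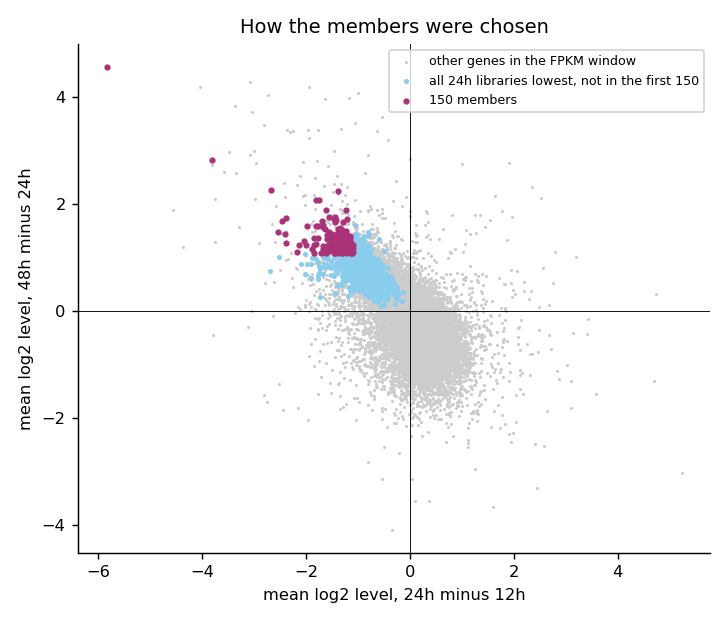
Each point is a gene in the FPKM window, placed by its mean log2 level at 24h minus 12h (x axis) and at 48h minus 24h (y axis). The 150 members lie in the corner beyond the last rule value of 1.08 on both axes, next to genes that met the condition and were not taken. Genes whose 24h libraries overlapped the others lie in the same corner. Without the demand of no overlap, 60 of the 150 genes with the largest rule values were members.

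The same condition was met by unequal numbers of genes for the 3 ages. All libraries of a group lay below the other 6 for 284 genes at 12h (1.66% of the window), 954 genes at 24h (5.56%) and 992 genes at 48h (5.78%). All lay above the other 6 for 359 genes at 12h (2.09%), 505 genes at 24h (2.94%) and 362 genes at 48h (2.11%). Among these libraries, being lowest at 24h was thus about as frequent as being lowest at 48h. No test of these counts was made.

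The pair of members with the largest rule values were those at 0 throughout the 24h group. For Glyma.10G003900 the values were 24.9, 90.8 and 75.3 scaled FPKM in the 12h libraries, 0 in all 3 of the 24h libraries, and 36.2, 42.6 and 7.17 scaled FPKM in the 48h libraries. Its level in 48h replicate 3 was well below the other values at 12h and 48h. Glyma.08G263400 had 7.59, 15.3 and 18.3 scaled FPKM at 12h, was listed at 0 in the same 3 libraries at 24h, and had 10.3, 3.07 and 6.81 scaled FPKM at 48h. Cufflinks can list 0 where its estimate failed, so both are described only as listed at 0, with no fold change. Of the 5 genes called between 24h and 12h among 31518 tested (0.0159%), these were the 2 that were lower at 24h (0.00635%). That contrast is part of the rule, so the calls add nothing to the choice.

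The member next in rank, Glyma.16G104700, singled out after its values were seen, shows how a wide spread at 24h could still meet the rule. It had 24.8, 30.5 and 76.5 scaled FPKM at 12h, 23.4, 9.12 and 0 scaled FPKM at 24h, and 25.2, 28.9 and 34.0 scaled FPKM at 48h. The highest 24h library lay just below the lowest 12h and 48h libraries, and 24h replicate 3 was listed at 0. Besides it, 1 other member was listed at 0 in some but not all 24h libraries. No member (0 of 150) was listed at 0 in any 12h or 48h library, which the rule itself excludes.

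The most abundant members had tighter groups. Glyma.20G003500 had 263, 262 and 296 scaled FPKM at 12h, 133, 90.5 and 133 scaled FPKM at 24h, and 288, 289 and 224 scaled FPKM at 48h. In scaled FPKM its 12h mean was 273 ± 19.3, its 24h mean 119 ± 24.5 and its 48h mean 267 ± 37.5 (SD, n = 3 each). Glyma.07G133500 had 210, 224 and 204 scaled FPKM at 12h, 94.7, 74.2 and 134 scaled FPKM at 24h, and 222, 238 and 181 scaled FPKM at 48h, with means of 213 ± 10.03, 101 ± 30.6 and 213 ± 29.3 scaled FPKM (SD, n = 3 each). In both genes the 12h and 48h libraries overlapped and their means lay close together. On the log2 scale the 48h minus 12h difference was -0.040 ± 0.314 for the first and -0.0036 ± 0.319 for the second (SE; limma adjusted p = 0.984 and 0.998), and both signs turned with the scaling.

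**Figure D3:**
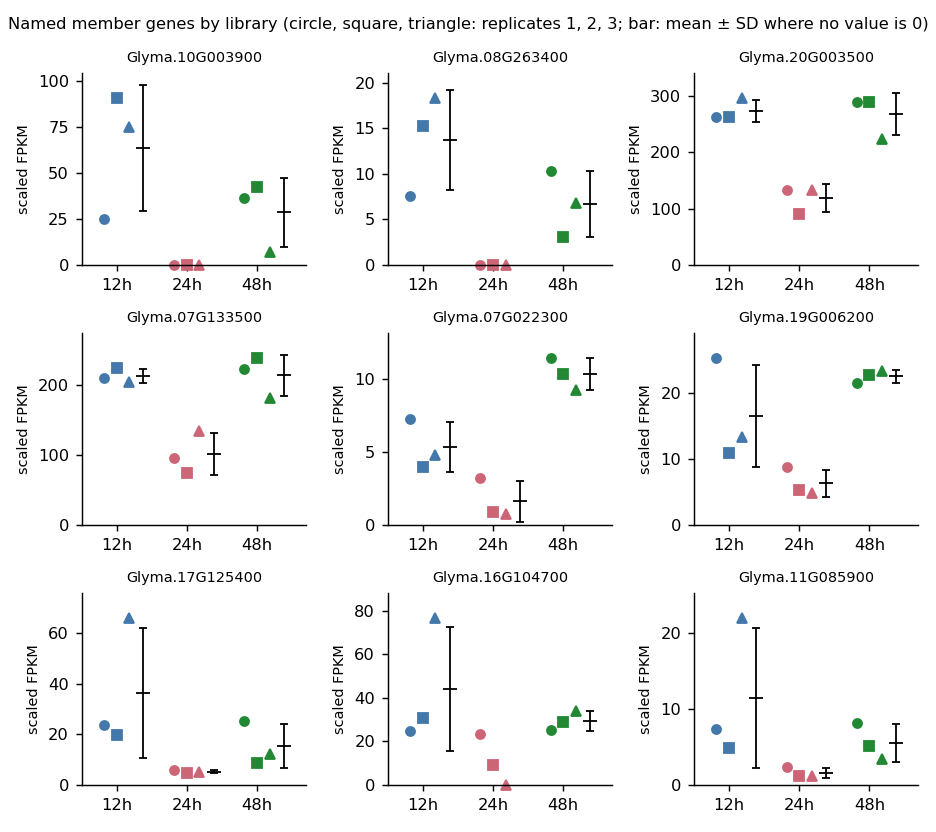
Scaled FPKM (y axis, from 0) of 9 named members at 12h, 24h and 48h; each symbol is a library and bars are mean ± SD (n = 3), drawn where no library is at 0. The first pair of genes is listed at 0 in all 24h libraries, and the 12h and 48h values of Glyma.20G003500 and Glyma.07G133500 overlap.

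The contrast that the rule did not use directly is 48h against 12h. It asks whether the members were back at the same level at the later age. Over all 31518 tested genes, limma called 1 gene (0.00317%) at an adjusted p under 0.05, and 0 of the 150 members were called. At an unadjusted p under 0.05 it had 2423 genes (7.69%) and 4 members (2.67%). The 48h mean was above the 12h mean in 53 members (35.3%) and below it in 97, against 39.6% above among all genes in the window. The median log2 difference of the members was -0.069, with quartiles of -0.25 and 0.047, against -0.10 for the window, with quartiles of -0.42 and 0.16. In 130 members (86.7%) the 2 means lay within 0.5 on the log2 scale, against 71.4% of the window. The rule takes genes that are high at both ages, so a narrow difference between them was favoured by the choice, and a missing call does not show that the levels were the same.

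**Figure D4:**
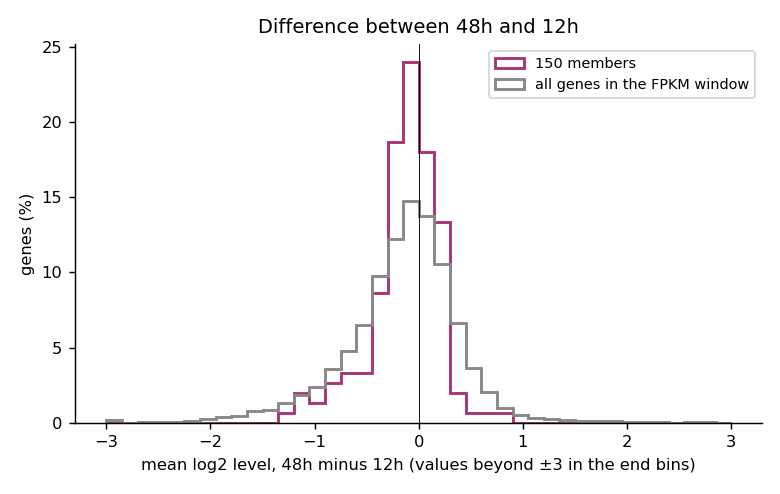
Distribution of the mean log2 level at 48h minus 12h (x axis) as a percentage of genes (y axis), for the 150 members and for all genes in the FPKM window. The members cluster around their median of -0.069, and the window is wider on both sides.

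The direction of the 48h against 12h difference rested on single libraries. Without 12h replicate 2, whose member levels were low, the median was -0.35 and 22 members were higher at 48h. Without 12h replicate 3, whose member levels were high, the median was 0.17 and 114 were higher at 48h. Without 48h replicate 3 it was 0.048, with 85 higher, and without 48h replicate 1 it was -0.17, with 34 higher. With FPKM as deposited it was 0.35, with 130 higher, where the median of all tested genes was 0.34. With the scaling used here that median was -0.023.

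The 48h and 12h libraries did not overlap in 4 of 150 members (2.67%), against 15.8% of all tested genes. The tested genes reach beyond the FPKM window, and the choice favoured a narrow difference between these ages. The lower share is therefore not read as a trait of the members. In 1 member the 48h libraries were higher, against 8.07% of all tested genes, and in 3 they were lower, against 7.77%. The member with higher 48h libraries was Glyma.07G022300. It had 11.4, 10.3 and 9.28 scaled FPKM in the 48h libraries, against 7.28, 3.998 and 4.79 scaled FPKM in the 12h libraries. Its 24h libraries had 3.24, 0.852 and 0.754 scaled FPKM. Its log2 difference of 0.87 ± 0.356 did not pass (SE; limma adjusted p = 0.615). The 3 that were lower at 48h, named after their values were seen, were Glyma.08G059900, Glyma.13G277100 and Glyma.17G219200. Glyma.13G277100 had 30.5, 29.7 and 25.7 scaled FPKM at 48h, against 33.4, 33.6 and 54.1 scaled FPKM at 12h. Glyma.17G219200 had 23.5, 25.7 and 19.7 scaled FPKM at 48h, against 29.9, 28.5 and 39.4 scaled FPKM at 12h. Glyma.08G059900 had 5.97, 4.32 and 3.74 scaled FPKM at 48h, against 7.55, 6.20 and 17.02 scaled FPKM at 12h. The gaps between groups were small beside the distance of 12h replicate 3 from the other 12h libraries.

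By smallest p, the other members named in this contrast were Glyma.19G006200, higher at 48h, and Glyma.08G263400 and Glyma.17G125400, lower at 48h. Glyma.19G006200 had 21.5, 22.8 and 23.5 scaled FPKM at 48h, against 25.3, 10.9 and 13.4 scaled FPKM at 12h, a log2 difference of 0.51 ± 0.328 (SE; limma adjusted p = 0.739). Glyma.17G125400 had 25.4, 8.85 and 12.1 scaled FPKM at 48h, against 23.8, 19.6 and 66.0 scaled FPKM at 12h, a difference of -1.11 ± 0.481 (SE; limma adjusted p = 0.638). Both pairs of groups overlapped. For Glyma.08G263400 the difference was -0.97 ± 0.405 (SE; limma adjusted p = 0.622).

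In the contrasts that the rule used, the number of called members changed with the libraries fitted. For 24h against 12h, 2 of 150 members were called lower, both listed at 0 at 24h, against 0.00635% of all tested genes. Neither was called with the replicate block, after quantile normalization, with no filter, or without 12h replicate 3 or any 1 of the 24h libraries, and 1 was called without any 1 of the 48h libraries. Without 12h replicate 2, 141 of 150 members passed the adjusted threshold, against 8.98% of the genes tested then. For 48h against 24h, 0 members and 0 genes (0%) passed with limma over all 9 libraries, where 142 members and 5471 genes (17.4%) had an unadjusted p under 0.05. Fitted on the 24h and 48h libraries alone, limma called 134 members higher at 48h, against 6.14% of all tested genes. Both contrasts share the 24h libraries, and nothing is read from these counts, since the members were chosen on the same values.

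Within each age the members moved together from library to library. The members' mean log2 level was 3.98, 3.50 and 4.53 in 12h replicates 1, 2 and 3, 2.90, 2.23 and 2.41 in the 24h libraries, and 4.09, 3.91 and 3.62 in the 48h libraries. At 12h, replicate 2 was the lowest of its group in 129 members and replicate 3 the highest in 118. Over all genes in the window, 12h replicate 2 was the lowest in 35.3% and the highest in 44.3%, and 12h replicate 3 the highest in 36.4%. At 24h, replicate 1 was the highest of its group in 113 members (30.6% of the window) and replicate 2 the lowest in 98 (31.9% of the window). At 48h, replicate 1 was the highest in 105 members (32.5% of the window) and replicate 3 the lowest in 117 (28.5% of the window). For 76 members, 12h replicate 2 and 48h replicate 3 were the lowest and 24h replicate 1 the highest of their groups, against 8.50% of the genes in the window.

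In 76 members (50.7%) 12h replicate 3 was over 2 times 12h replicate 2, against 17.4% of the genes in the window. In 68 members (45.3%) 24h replicate 1 was over 2 times 24h replicate 2, against 6.07%. For the members the SD of the log2 level had a median of 0.547 at 12h, 0.473 at 24h and 0.277 at 48h, against 0.546, 0.346 and 0.162 for all genes in the window (n = 3 each). The members thus had a wider spread at 24h and 48h, and about the same at 12h. These spreads were not compared at equal level, and the choice made the members low at 24h. When group means were removed, the correlation of a member's 9 deviations with the members' mean deviation had a median of 0.821, and 86.0% of members were above 0.5. Among the 17005 other genes in the window the median was -0.115, and 27.2% were above 0.5. The points share the libraries and the members contribute to their own mean, so this is a description.

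The 4 libraries with the lowest member levels were the 24h libraries and 12h replicate 2. The choice put the 24h libraries lowest in every member, so of these 4 only the place of 12h replicate 2 was free. They were also the 4 in which the 100 highest genes held the most of the FPKM sum (33.1% to 53.6%, against 22.5% to 28.1%). Within the 24h group the order was the same, with the largest share and the lowest member level in replicate 2, then replicate 3, then replicate 1. It was also the same within the 12h group, in the order replicate 2, replicate 1, replicate 3. Within the 48h group it was reversed, with the largest share and the highest member level in replicate 1, then replicate 2, then replicate 3. Of the 4, 12h replicate 2 had the largest share and the highest member level. The part of this difference in make-up in the low 24h levels was not tested.

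The edge of the choice lay between 12h replicate 2 and 24h replicate 1 in 74 members (49.3%). The lowest of the 6 libraries at 12h and 48h was 12h replicate 2 in 96 members and 48h replicate 3 in 38. The highest of the 24h libraries was 24h replicate 1 in 113. The gap between the lowest of the 6 and the highest 24h library had a median of 0.32 on the log2 scale, from 0.0016 to 3.03, and was under 0.1 in 18 members. The median 24h minus 12h difference was -0.90 against 12h replicate 2 alone, -1.42 against replicate 1 and -1.81 against replicate 3.

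Membership depended on the scaling, and most on that of 12h replicate 2. In FPKM as deposited, 34 of the 150 members had all 24h libraries below the other 6, and 116 did not. In all 116 the library that broke the condition was 12h replicate 2 and no other. With only 12h replicate 2 left unscaled, 35 of 150 met the condition. With only 24h replicate 1 left unscaled it was 135, with only 24h replicate 2 it was 149, and with any 1 of the other 6 it was 150. These counts were added after the data were seen. The 24h mean was below both other means in 150 of 150 in FPKM as deposited. The choice left little room for another outcome, since every member had a rule value of at least 1.08. Nothing is therefore read from this count. Glyma.07G022300, for example, had 8.38, 2.39 and 4.63 FPKM as deposited at 12h, 3.59, 0.909 and 0.602 FPKM at 24h, and 14.05, 12.8 and 10.97 FPKM at 48h, so that 12h replicate 2 lay below 24h replicate 1.

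The rule was also applied to 8 libraries at a time, and the 150 genes chosen were then read in the library left out, an addition made after the data were seen. Of genes chosen without 12h replicate 1, 96.7% lay above the 24h libraries in it, against 27.1% of the genes in the window. Without 12h replicate 3 it was 92.7%, against 33.7%. For 12h replicate 2 it was 46.7%, against 36.9%. Among the 12h and 48h libraries, this was the one in which the chosen genes were nearest to the window. For the 48h libraries the shares were 100%, 98.0% and 95.3% for replicates 1, 2 and 3, against 25.5%, 23.6% and 23.8%.

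In the 24h libraries the matching count is of genes below all 6 others. It was 45.3% in replicate 1, 86.0% in replicate 2 and 72.0% in replicate 3, against 11.3%, 23.4% and 21.3% of the window. The median log2 distance of the chosen genes from the mean of the other 6 libraries was -0.73, -1.49 and -0.95 in these, against 0.055, 0.081 and 0.098 over the window. In 12h replicate 2 the chosen genes lay a median of 0.59 above the 24h mean, whereas it was 1.33 in 12h replicate 1 and 1.59 in 12h replicate 3. The other libraries in these comparisons were those on which the genes had been chosen as low or high. Genes chosen on noise alone could therefore also lie on the rule's side more often than the window. Lying below all 6 others is a stricter count than lying above the 3 libraries at 24h. The share of the window is thus not the share that no difference would give. The shares serve only to set libraries with the same count side by side.

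**Figure D5:**
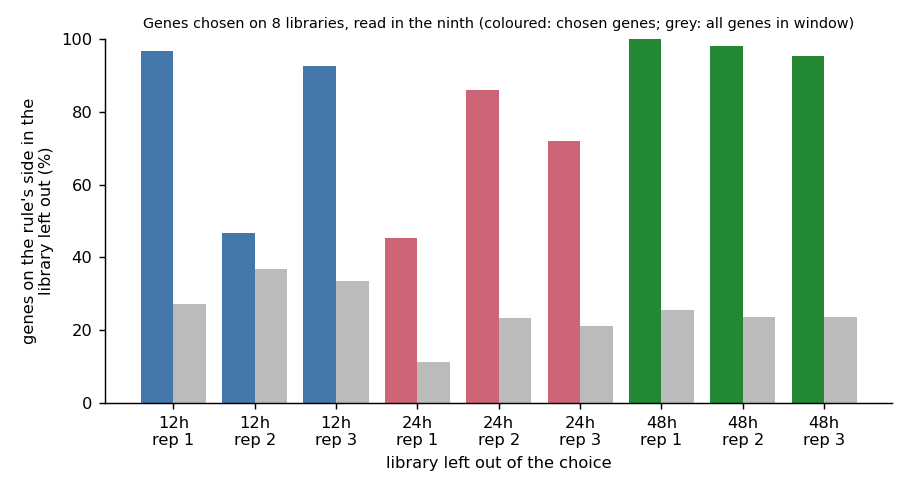
Share of genes on the rule's side (y axis, %) in the library left out of the choice (x axis): above the 24h libraries for a 12h or 48h library, below the other 6 for a 24h library. Coloured bars are the 150 genes chosen on the other 8 libraries and grey bars all genes in the window. The lowest coloured bar is 12h replicate 2 (46.7%) among the 12h and 48h libraries. Among the 24h libraries, whose count is stricter, it is 24h replicate 1 (45.3%).

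By their IDs, in which the first digits give the chromosome in the soybean naming system, the members lay on all 20 chromosomes. Chromosome 6 held the most, 16 members (10.7%), against 5.57% of the genes in the window, and chromosome 5 the fewest, 1 member (0.667%), against 4.82%. Among all 954 genes that met the condition, the shares of these chromosomes were 5.97% and 4.19%, nearer to the window. No test was made of these shares, which were picked after all chromosomes had been seen.

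Some members had neighbouring IDs. In 8 pairs, 16 members in all, the IDs lay within 10 steps of each other, and among the next 150 genes by rule value there were 2 such pairs. These pair counts were not tested, and no count over the whole window stands beside them. Only 1 pair had adjacent IDs, Glyma.11G085900 and Glyma.11G086000, named after their place was seen. Glyma.11G085900 had 7.42, 4.87 and 22.0 scaled FPKM at 12h, 2.32, 1.24 and 1.18 scaled FPKM at 24h, and 8.23, 5.07 and 3.35 scaled FPKM at 48h. Glyma.11G086000 had 8.61, 5.99 and 8.15 scaled FPKM at 12h, 3.36, 1.32 and 2.48 scaled FPKM at 24h, and 6.82, 8.20 and 4.23 scaled FPKM at 48h. The pair differed most in 12h replicate 3, where the first was highest. Whether they are near-identical copies was not checked. The 92 other genes in the window that directly flank a member had a median rule value of -0.30, as did the window (-0.30), and 3 of them (3.26%) met the condition, against 5.56%.

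None of the loci known by published soybean locus names that were looked up here was a member. Of 50 such loci, 25 averaged within the FPKM window, 1 met the condition and 0 were among the 150. Of all 17155 genes in the window, 5.56% met the condition and 150 were members. With so few loci, nothing is read from the 0. In the window were 4 of 4 morning clock loci, 4 of 7 evening clock loci, 3 of 9 photoperiod loci, 2 of 10 nodulation loci, 7 of 14 isoflavonoid loci and 5 of 6 reference genes. The locus that met the condition was the evening clock locus Glyma.04G166300, at rank 828 of 954. It is published as a soybean copy of TOC1, a repressor of the plant circadian clock that acts in the evening in Arabidopsis. It had 9.23, 5.40 and 6.93 scaled FPKM at 12h, 5.06, 4.85 and 2.64 scaled FPKM at 24h, and 6.56, 5.66 and 5.33 scaled FPKM at 48h. Its rule value was 0.43, and the gap between 24h replicate 1 and 48h replicate 3 was small.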

How the data were processed

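Messenger RNA of 9 soybean root hair libraries was analysed from 1 deposited table of 56044 gene IDs. Its values are FPKM made by the authors; the submitters' processing notes name TopHat2 2.1.0 and Cufflinks 2.2.1. Neither the genome build nor the gene models were given in the sources used here. The table's name refers to tissue culture, whereas the labels say root hair cells; the labels were followed.

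Libraries were divided by median-of-ratios factors over the 34672 genes above 0 in all 9. The test took genes that reached 1 FPKM in 3 or more libraries (31518, all 150 members included) and used limma 3.58.1 (R 4.3.3), with an intensity trend, on log2(scaled FPKM + 1), in 1 fit of 9 libraries with a term per age. P-values were adjusted by Benjamini-Hochberg over all tested genes, with calls under 0.05. This scale understates changes of low genes. Medians and counts used Python 3.11.15.

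Members, lists and settings were chosen with earlier results of these data known. Named are the 2 members of largest rule value, the 2 most abundant, those at 0 in all 24h libraries, the 2 higher and 2 lower of smallest p for 48h against 12h, and the genes at the limit. One gene was left out of the ranking by the rule. Alternatives covered scaling, pseudocount, filter, moderation, a replicate block, the libraries fitted and each library left out.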

Additional observations from a re-analysis of the deposited data

How the results depend on the processing

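The count of members called for 48h against 12h was 0 in all 18 alternative fits. Depth is unknown, so its part in any change was not tested; the cause of the changes below was not tested either. With FPKM as deposited, 34 members were re-chosen (of 140 genes that met the condition), 2 did not overlap between 48h and 12h, and the median difference was 0.35; 37 genes were called for 48h against 12h (12 for 24h against 12h). Dropping the demand of no overlap re-chose 60 members. Quantile normalization called 7 genes for 48h against 12h (2 for 24h against 12h). A pseudocount of 0.1 called 11 genes for 48h against 12h (2 for 48h against 24h), and one of 0.25 called 3 for 48h against 12h. No filter called 2 in each of the contrasts with 12h. Fits restricted to the compared groups called 19 genes for 48h against 12h, whereas for 48h against 24h they called 3809.

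Leaving out 1 library re-chose 63 (without 12h replicate 2) to 129 members, with 65 without 24h replicate 1 and 84 without 24h replicate 3. It gave 1 to 30 genes for 48h against 12h (30 without 24h replicate 2), 1 to 5044 for 24h against 12h (5044 without 12h replicate 2), 0 for 48h against 24h, and a member median of -0.35 to 0.17. Genes chosen on 8 libraries lay on the rule's side in the ninth in 70 (12h replicate 2) to 150 cases for the 12h and 48h libraries. By the stricter count for the 24h libraries it was 68 (24h replicate 1) to 129 (24h replicate 2). The replicate block gave 2 genes for 24h against 12h, 0 of them members, and left the other counts as they were. Same-numbered libraries correlated from -0.068 to 0.37 in their deviations from group means, so the numbers are not taken as pairs. The 48h against 12h difference of Glyma.07G133500 turned to 0.47 as deposited, 0.61 after quantile normalization and 0.034 and 0.11 without 12h replicate 2 and 48h replicate 3, within -0.083 to 0.11 over the libraries left out. That of Glyma.20G003500 turned to 0.44, 0.59, and 0.029 and 0.080 without 12h replicate 3 and 48h replicate 3, within -0.0999 to 0.080. The other 5 named genes kept their sign in 18 of 18.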
